A study of Mus musculus with 51 samples.

Results

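The genes of collagens and laminins were examined for active chromatin during the making of astrocytes in culture. The list holds 38 members of the 22089 protein-coding genes with a unique symbol in the mm9 annotation, 29 collagen and 9 laminin genes, and all 38 were found. For each member, every H3K27ac or H3K4me1 peak that overlapped the gene body or 10 kb on either side was taken, and this stretch is called its window. The rule is membership of these families and uses no measured value, though the list was proposed with earlier results of these data known. The windows ran from 30.7 kb (Lamb2) to 656 kb (Lama2), with a median of 111 kb against 35.4 kb over all coding genes. Longer windows hold more peaks, so levels of different genes are compared as peaks per 100 kb, and differences in peak number depend on window length as well.

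The series holds 51 samples of an in vitro course of differentiation. Mouse embryonic stem cells, stated to derive from C57/BL-6 mice, were turned into astrogliogenic neural progenitors (aNPC), which were kept with EGF and FGF-2. The progenitors were then moved to medium with 1% FBS and LIF and gave early astrocytes on day 1 (eA) and late astrocytes on day 5 (lA). The aNPC, eA and lA libraries used here carry no knockdown, and the series' knockdown groups were not analysed here. The cells were grown in a dish, apart from the vessels and meninges of the brain, which limits them as a model of brain matrix. For each stage and mark, 2 biological replicates were sequenced, and their reads were merged before peaks were called. There were therefore 6 peak lists, 1 per stage and mark, no difference between stages has a replicate error, and none was tested. The depth of the merged libraries is unknown here. The ranges in parentheses after a share or ratio of peaks are 95% Wilson intervals, which cover counting error over peaks only, and shares of genes are given without one. In a bulk culture, more cells carrying a mark and more of the mark per cell cannot be told apart.

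Collagens are proteins whose chains wind around each other into a helix. Fibrillar collagens form the fibres of connective tissue, while type IV collagen forms a network in basement membranes, the thin sheets on which epithelia, vessels and the endfeet of astrocytes rest. Laminins join an alpha, a beta and a gamma chain into a cross-shaped molecule that organises the basement membrane and binds integrins and dystroglycan on cells. In the brain, laminins and type IV collagen are known from the sheets around vessels and at the pial surface. H3K27ac marks active promoters and enhancers, and H3K4me1 marks enhancers whether active or not and the flanks of promoters.

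The sequences that stand for the stage-specific part of the data are those of the peaks found at a single stage. Unique peaks are those that shared not 1 bp with any peak of their mark at another stage. Below are 200 bases of mm9 around the summits of the 2 unique H3K27ac peaks with the highest −log10 q of each stage, all on the plus strand. Capitals mark exact matches, on either strand, to an NF1 half-site (TTGGCA), an AP-1 site (TGACTCA) or a RUNX core (TGTGGT). The Lamb3 sequence (chr1:195164312-195164511, aNPC) and the Lama5 sequence (chr2:179953658-179953857, aNPC) lie in gene bodies. Those of Col12a1 (chr9:79566141-79566340, eA) and Col15a1 (chr4:47248080-47248279, eA) lie at a promoter and in a gene body. For lA they are Lama2 (chr10:26837941-26838140) and Col11a1 (chr3:113784645-113784844).
Lamb3: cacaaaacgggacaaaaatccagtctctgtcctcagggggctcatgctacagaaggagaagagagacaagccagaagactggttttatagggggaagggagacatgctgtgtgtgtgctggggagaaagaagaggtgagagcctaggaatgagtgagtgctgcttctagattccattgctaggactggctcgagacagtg
Lama5: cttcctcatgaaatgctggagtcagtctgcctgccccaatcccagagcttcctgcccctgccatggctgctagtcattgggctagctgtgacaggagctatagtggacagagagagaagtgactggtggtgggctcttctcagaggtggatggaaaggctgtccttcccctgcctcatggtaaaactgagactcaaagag
Col12a1: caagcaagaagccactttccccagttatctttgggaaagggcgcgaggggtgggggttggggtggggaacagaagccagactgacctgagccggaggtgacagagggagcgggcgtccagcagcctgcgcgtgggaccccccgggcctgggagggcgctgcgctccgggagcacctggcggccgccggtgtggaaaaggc
Col15a1: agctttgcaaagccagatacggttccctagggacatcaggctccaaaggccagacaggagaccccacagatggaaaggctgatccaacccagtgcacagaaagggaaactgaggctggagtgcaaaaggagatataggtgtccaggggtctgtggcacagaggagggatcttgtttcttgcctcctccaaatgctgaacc
Lama2: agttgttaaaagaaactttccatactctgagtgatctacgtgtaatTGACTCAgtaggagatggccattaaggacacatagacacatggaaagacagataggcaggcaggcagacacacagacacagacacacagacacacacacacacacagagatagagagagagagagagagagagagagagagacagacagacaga
Col11a1: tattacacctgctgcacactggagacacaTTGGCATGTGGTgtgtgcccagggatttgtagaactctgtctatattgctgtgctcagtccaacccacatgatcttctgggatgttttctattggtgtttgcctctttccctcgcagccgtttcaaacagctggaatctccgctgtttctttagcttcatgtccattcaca
The 4 aNPC and eA sequences held none of these letters. The Lama2 sequence held 1 AP-1 match and then runs of short repeats, and the Col11a1 sequence held 1 NF1 half-site directly followed by 1 RUNX core. Across the 200-base windows of all unique peaks of the 38 genes, the AP-1 letters were in 1.96% (0.539 to 6.87) of 102 aNPC peaks, in 7.02% (2.76 to 16.7) of 57 eA peaks and 4.81% (2.07 to 10.8) of 104 lA peaks. All unique peaks of the lists held them in 3.91%, 4.60% and 4.20%. The NF1 half-site was in 16.7%, 10.5% and 15.4% of the members' unique peaks, against 12.0%, 13.3% and 11.7% over the lists, and the RUNX core was in 18.6%, 15.8% and 16.3%, against 15.1%, 13.6% and 15.2%. Each of these whole-list shares lay inside the members' interval. A match is a description of the letters and not a binding site.

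Col4a1 and Col4a2, which encode the chains of the common form of type IV collagen, are transcribed away from each other from start sites 21 bp apart. The stretch between and around these start sites (chr8:11312665-11312964, 300 bases, plus strand) is shown because the same peaks count as the promoter of both genes. Capitals mark exact matches, on either strand, to a GC box (GGGCGG) or a CCAAT box (CCAAT).
Col4a1/Col4a2: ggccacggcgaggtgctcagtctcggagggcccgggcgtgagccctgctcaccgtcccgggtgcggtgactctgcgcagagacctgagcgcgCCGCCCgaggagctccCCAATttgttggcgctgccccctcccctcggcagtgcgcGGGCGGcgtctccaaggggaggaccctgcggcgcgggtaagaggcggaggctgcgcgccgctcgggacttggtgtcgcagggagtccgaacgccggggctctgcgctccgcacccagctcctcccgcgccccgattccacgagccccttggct
It held 2 GC boxes and 1 CCAAT box, and 74.0% of its bases were G or C. In stretches of the same length around the most upstream coding start site, 46.2% of 22083 coding genes held a GC box and 35.5% a CCAAT box. A single H3K27ac peak lay across this stretch at every stage, and its width was 1216, 1082 and 618 bp at aNPC, eA and lA.

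In the merged windows of the 38 genes, which span 5097 kb, there were 233, 236 and 274 distinct H3K27ac peaks at aNPC, eA and lA. These were 0.293% (0.258 to 0.334), 0.283% (0.249 to 0.321) and 0.296% (0.263 to 0.333) of the 79413, 83433 and 92700 peaks of the lists. The ratio of lA to aNPC was 1.18 (0.988 to 1.40) in the windows and 1.17 over the whole lists, and the intervals of the members' shares at the 3 stages overlap. For H3K4me1 there were 465, 577 and 610 peaks, a ratio of 1.31 (1.16 to 1.48) against 1.35 over the lists. With the lists of each mark held to equal length, these ratios were 0.987 and 0.970, below 1. Most H3K27ac peaks lay in introns, 171 of 233, 166 of 236 and 204 of 274 at the respective stages. The start site nearest to the peak was that of a member for 79.8%, 81.8% and 82.5%, and the other peaks lay nearer to the start of a neighbouring gene.

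The labelled cell types were checked on 8 astrocyte markers. The promoters of 5, 5 and 6 of them carried H3K27ac at aNPC, eA and lA, beside 50.6%, 53.2% and 48.2% of coding genes, and the promoter of Aqp4, the astrocyte water channel, had a peak in lA only, that of S100b in aNPC only, and that of Gfap at every stage. Of 7 neural progenitor markers, 6 had promoter H3K27ac at each stage. Among 4 neuron markers this was so for 2, 1 and 1, and their windows summed to 19, 20 and 20 peaks, with Rbfox3 at 0, 7 and 5 and Dcx at 6, 1 and 0. Markers of other matrix-making cells were also read in the windows. The 6 mural cell markers summed to 15, 28 and 32 H3K27ac peaks, with Pdgfrb and Rgs5 at 0 in aNPC and Cspg4 at 11, 6 and 7. The 8 fibroblast or meningeal markers summed to 20, 19 and 24, with Lum at 0 at every stage, and the 6 endothelial markers to 12, 7 and 17, with Cldn5 and Tie1 at 0 at every stage. From aNPC to lA, 5 of 6 mural markers gained peaks by the rule given for the members below. So did 1 of 8 fibroblast and 1 of 6 endothelial markers, counted with or without a peak. The share was 17.8% of coding genes with a peak at aNPC or lA. The part of such cells in the results for the members was not tested.

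Most promoters of the 38 genes carried no H3K27ac. The promoter was set from 1 kb before to 100 bp past each coding start site, and 11, 16 and 12 members had an overlapping peak at aNPC, eA and lA. These are 28.9%, 42.1% and 31.6% of the members, beside 50.6%, 53.2% and 48.2% of all coding genes. H3K4me1 was at the promoter of 24, 29 and 27 members (63.2%, 76.3% and 71.1%, beside 55.5%, 53.6% and 52.8%). The promoter of 16 members (42.1%) had H3K4me1 at some stage and H3K27ac at none, a state found in 10.1% of all coding genes. A second background was the coding genes with windows as long as the members', meaning between their shortest and longest. It is not matched to their median length. Among these genes, 63.4%, 66.8% and 60.2% had promoter H3K27ac and 68.2%, 65.6% and 64.5% H3K4me1. The members' H3K4me1 share in aNPC lay below that background. The definition of the promoter was varied as well. With 1 kb to each side of the coding start sites, 16, 19 and 17 members had H3K27ac, beside 52.4%, 55.4% and 51.8% of coding genes. With start sites of all transcripts and the first width, 12, 18 and 15 had it, beside 51.5%, 54.1% and 49.3%. With both changed, 18, 23 and 19 had it, beside 53.2%, 56.1% and 52.5%, and the members' share in eA (60.5%) was then above the background while those in aNPC and lA stayed below it. In that setting 11 members had H3K4me1 alone (28.9%, beside 10.4%).

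Promoter H3K27ac was present at every stage in 9 members (23.7%, beside 45.2% of coding genes). Among them were both type IV collagen genes and 3 laminin genes, Lamb1, Lamb2 and Lamc1, which encode the widely used beta 1, beta 2 and gamma 1 chains. Col5a1 and Col11a1, chains of minor fibrillar collagens that set fibril diameter, Col27a1, a fibrillar collagen of cartilage, and Col16a1, a fibril-associated collagen, completed the group. No laminin alpha gene was among them.

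At 8 promoters (21.1%, beside 10.6% of coding genes) H3K27ac was present at some stages only. Col12a1, a fibril-associated collagen, had it in eA alone, as the strongest eA-unique peak of all windows (chr9:79565765-79566497, −log10 q of 26.7, rank 19952 of the list), and H3K4me1 was there at all stages. The type VI collagen genes, whose chains form beaded filaments, also differed in eA. Col6a1 (−log10 q of 8.85) and Col6a3 (4.69) had a promoter peak in eA only, and Col6a2 had it in eA (6.38) and lA (9.65 and 5.55). The eA peak of Col6a1 was overlapped by an lA peak that lay wholly past the promoter, with its summit 0.242 kb into the gene, so that site had H3K27ac in both astrocyte stages. The Col6a3 peak lies at a start site inside the gene, 0.378 kb from the summit, and not at the most upstream start site.

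Col23a1, a transmembrane collagen, had a promoter peak in eA (−log10 q of 18.5) and lA (11.2) and none in aNPC. Col25a1, a transmembrane collagen made by neurons, went the other way, with a promoter peak in aNPC (13.6) and eA (7.11) and none in lA. Lama5, the alpha chain of the common adult basement membrane laminins, had a peak over its start site in aNPC (32.0) and eA (31.1) and none within the promoter in lA, where the overlapping peak lay further into the gene. In lA alone, Lama2, the alpha chain of muscle and of the brain's vessel laminin, had a promoter peak, and its −log10 q of 2.73 placed it at rank 90914 of 92700, near the end of the list. The values of −log10 q rank peaks within a list and are not compared between lists.

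Of the other 21 members (55.3%, beside 44.2% of coding genes), 16 had H3K4me1 alone within the promoter as set. Among them were Col1a1 and Col3a1, chains of the main fibrillar collagens of connective tissue, Col8a1, Col15a1 and Col18a1. Past the cut of 100 bp, Col1a1 had an H3K27ac peak at every stage. The summits lay 0.808, 0.789 and 0.783 kb from its nearest start site at aNPC, eA and lA. At the promoters of Col1a2, Col2a1, Col9a2, Col11a2 and Lama3, so set, neither mark had a peak at any stage. Past the cut, Col11a2 had H3K27ac summits 0.475 kb (aNPC) and 0.630 kb (lA) from its nearest start site. Col9a2 had an aNPC summit at 0.941 kb, and an aNPC-unique peak of Lama3 had its summit 0.313 kb from a start site. Lama3 nevertheless held 11, 25 and 25 H3K27ac peaks in its window, none of them at a promoter. Col1a2, the partner of Col1a1, held 2, 1 and 3.

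**Figure D1:**
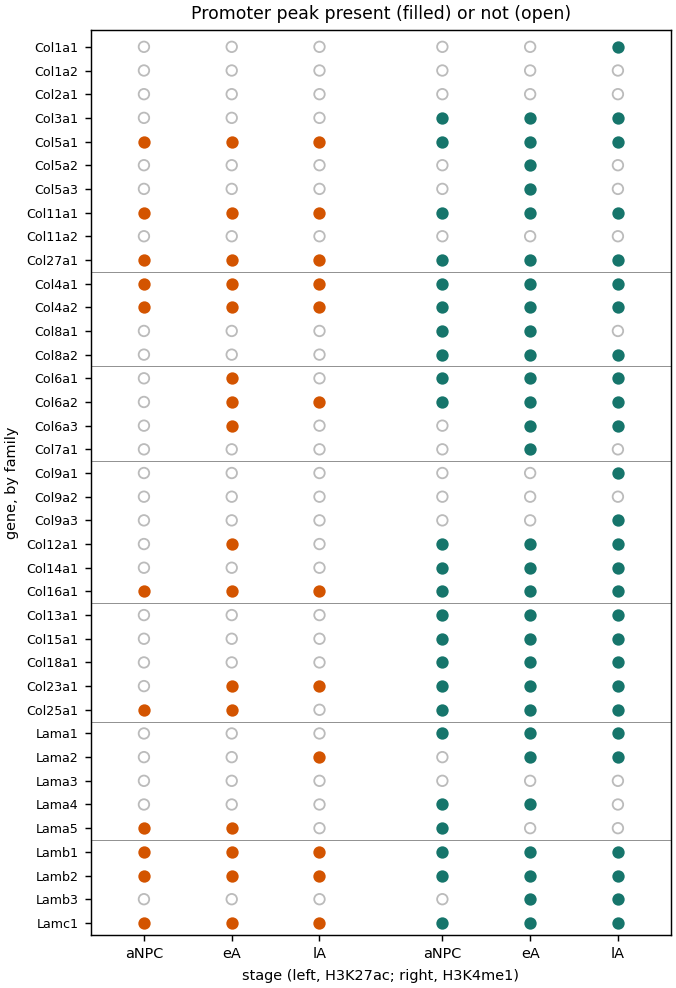
Promoter peaks of each of the 38 genes (rows, by family) at aNPC, eA and lA (columns) for H3K27ac on the left and H3K4me1 on the right; a filled circle is a peak between 1 kb before and 100 bp past a coding start site. H3K27ac is filled for 11, 16 and 12 genes and H3K4me1 for 24, 29 and 27.

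A member was called gained between stages if its window held at least 2-fold as many peaks and at least 2 more. The reverse case was called lost. The shares called are of the genes with a peak of the mark at either stage compared, for members and coding genes alike. From aNPC to lA, 11 of the 37 members with an H3K27ac peak gained (29.7%, beside 17.8% of coding genes) and 6 lost (16.2%, beside 9.16%). Among coding genes with windows as long as the members', 19.4% gained and 9.52% lost. With lists of equal length, 8 members gained (21.6%, beside 14.0%) and 7 lost (18.9%, beside 11.6%). From aNPC to eA, 6 gained (16.2%, beside 17.2%) and 5 lost (13.5%, beside 7.29%), and from eA to lA 5 gained (13.5%, beside 6.81%) and 2 lost (5.41%, beside 8.13%). The comparisons share lists, so their calls are not independent. The median number of H3K4me1 peaks per member in aNPC was 10, and that of H3K27ac peaks was 4. From aNPC to lA H3K4me1 was gained at 4 members (10.5%, beside 14.5%), Col1a2, Col5a2, Col8a1 and Lamb1, and lost at none of 38 (beside 3.22%). In plain number, H3K4me1 peaks were more in lA than in aNPC at 29 members and fewer at 3, with a median difference of 2, and H3K27ac peaks were more at 21 and fewer at 13, with a median difference of 1. Over all coding genes with a peak the medians were 1 and 0.

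The gains of most peaks from aNPC to lA were those of Lama3 (11 to 25 peaks), Col8a1 (0 to 12), Col23a1 (1 to 13), Col14a1 (7 to 18) and Col15a1 (2 to 9). The losses of most peaks were those of Col25a1 (15 to 6), Col27a1 (18 to 9) and Col5a3 (8 to 3). Per 100 kb of window the order was another one, with differences of 8.14 for Col2a1, 8.03 for Col6a1, 7.97 for Col8a1, all above Lama3, and 3.82 for Col23a1, below Lama3, and of -7.69 for Col5a3, -6.38 for Col27a1 and -2.05 for Col25a1. Of the 17 members called, the calls of Col2a1, Col6a2, Col8a1, Col15a1 and Col23a1 held under all 6 alternative windows, thresholds and overlaps and also by the bases covered. The other 12 lost their call under at least 1 of them. Those of Col6a1, Col7a1 and Col8a2 each rest on 3 peaks or fewer of difference and were lost under 3 or 4, and Lama3 lost its call with lists of equal length and with 50 kb on either side. By covered bases, at least 2-fold and 1000 bases more, 9 members gained (24.3%, beside 11.1% of coding genes) and 4 lost (10.8%, beside 7.12%).

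**Figure D2:**
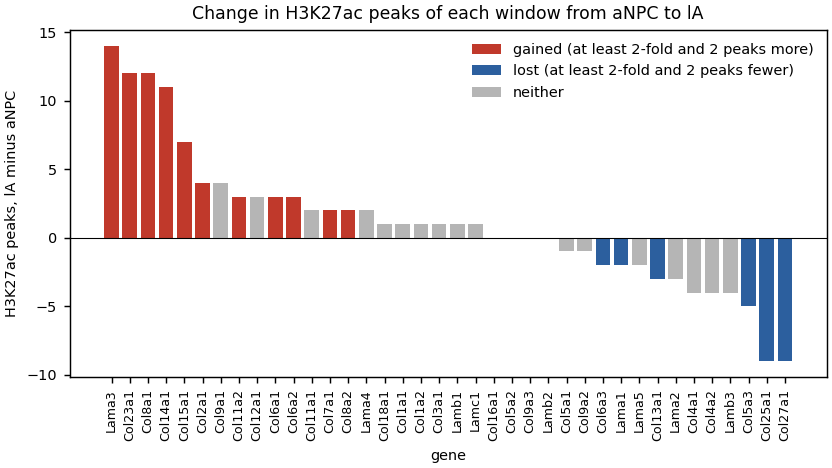
H3K27ac peaks in lA minus those in aNPC (vertical axis) for each of the 38 genes, sorted by the difference; red bars are the 11 genes called gained, blue bars the 6 called lost and grey bars the rest. The differences run from 14 peaks more (Lama3) to 9 fewer (Col25a1 and Col27a1).

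In the 10 fibrillar collagen genes there were 58, 49 and 55 H3K27ac peaks at aNPC, eA and lA, or 5.88, 4.97 and 5.58 per 100 kb. Col1a1 held 4, 7 and 5 peaks in a short window, and its density was above that of its family at every stage, with 10.9 per 100 kb in aNPC, 13.6 in lA and a higher value in eA. Col1a2 held 2, 1 and 3 peaks (3.53, 1.76 and 5.29 per 100 kb), and Col3a1 held 0, 1 and 1 (0, 1.72 and 1.72). Col5a2, whose chain joins that of Col5a1 in type V collagen, was the member without an H3K27ac peak at any stage, and it had 1, 4 and 3 H3K4me1 peaks. Col5a1, in contrast, held 17, 10 and 16 H3K27ac peaks (9.82, 5.78 and 9.24 per 100 kb). It had 10 peaks unique to aNPC and 6 unique to lA, so like totals in aNPC and lA came in part from different called peaks. The lowest −log10 q among these unique peaks was 3.39 in aNPC and 2.49 in lA.

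Col5a3, a further chain gene of type V collagen, lost H3K27ac from aNPC to eA and to lA, with 8, 4 and 3 peaks. Its intronic peak 21.2 kb from the start site (chr9:20597685-20598756) had a −log10 q of 366 in aNPC, rank 180 of 79413. A peak lay there at every stage, at rank 2916 in eA and 2492 in lA. The losses at Col5a3 were of 6 weaker aNPC-unique peaks, with −log10 q from 4.38 to 9.08. Those in the downstream flank lay 51.2 to 53.6 kb from the Col5a3 start site, nearer to the start of a neighbour, Olfm2. Those in introns lay nearest to the start site of Col5a3. The call was lost with the gene body alone and with 50 kb on either side, where the differences were -1 and -4 peaks.

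Col27a1 held 18, 8 and 9 H3K27ac peaks, with 11 unique to aNPC. All 11 had H3K4me1 in aNPC, all 11 also in eA and 7 in lA. The H3K4me1 peaks of this window numbered 29, 31 and 24. Thus H3K27ac peaks went from the window while most of the sites kept an H3K4me1 peak. The loss was not called with the gene body alone, with a −log10 q of at least 5 or after peaks under 1 kb apart were merged.

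Among the cartilage collagens, Col2a1, the chain of type II collagen, gained H3K27ac, with 0, 4 and 4 peaks and 3 sites found in both astrocyte stages. Col11a2 held 2, 3 and 5 peaks and was called gained in lA, but its covered bases were 2067 in aNPC and 2041 in lA. Its highest-ranked peaks lie at the promoters of neighbouring genes. Col11a1 held 7, 11 and 9 peaks, of which 2, 3 and 5 were unique to a stage. None of the 5 lA-unique Col11a1 peaks had H3K4me1 in aNPC, while 1 had it in eA and 4 in lA.

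**Figure D3:**
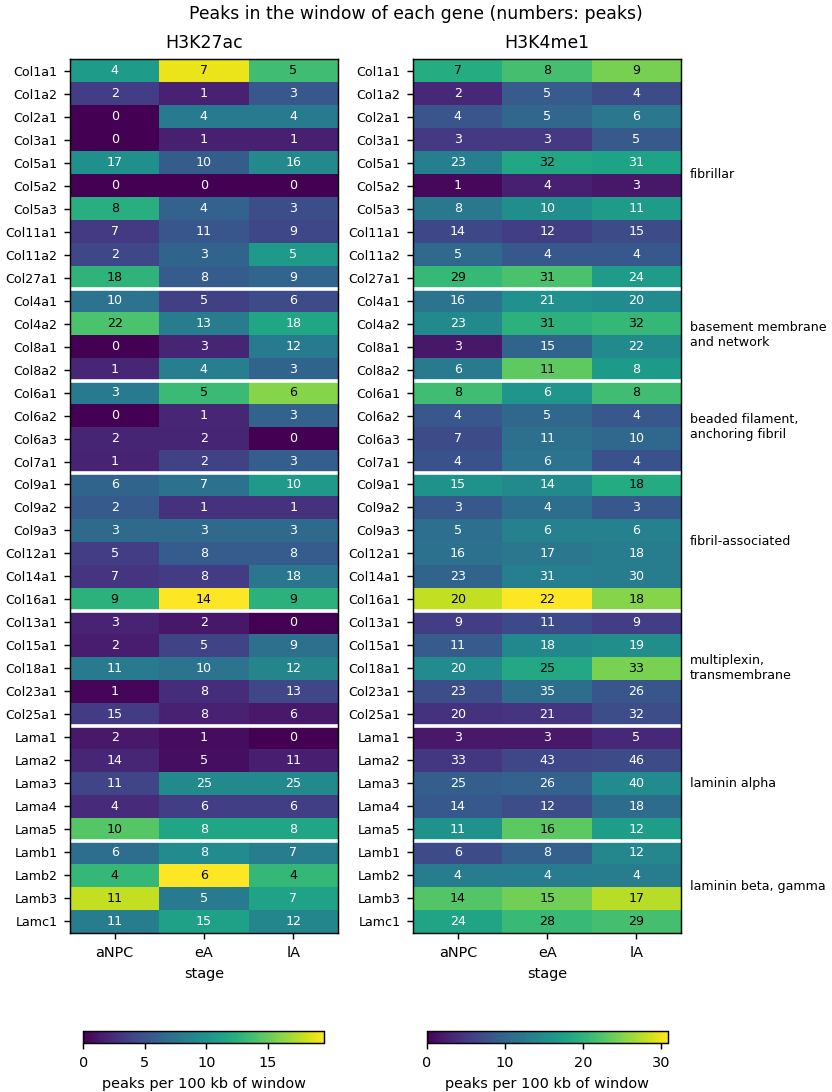
Peaks in the window of each of the 38 genes (rows, by family) at each stage (columns) for H3K27ac (left) and H3K4me1 (right); the number in a cell is the peak count and the colour its density per 100 kb of window. Col5a2 is at 0 for H3K27ac at all stages, and every gene has H3K4me1 at every stage.

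The 4 basement membrane and network collagen genes held 32, 24 and 38 distinct H3K27ac peaks (6.82, 5.12 and 8.10 per 100 kb). Neither type IV gene was called from aNPC to lA, and both type VIII genes were called gained. Col4a1 held 10, 5 and 6 peaks and was called lost from aNPC to eA, and Col4a2 held 22, 13 and 18. Together 13 aNPC-unique peaks lay in these windows, 7 at Col4a1 and 6 at Col4a2, against 1 and 4 unique to lA. All 7 of Col4a1 had H3K4me1 in aNPC and in eA, and 1 had it in lA.

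Col8a1 and Col8a2 encode the chains of type VIII collagen, a short-chain network collagen of vessel walls and of the cornea. Col8a1 held 0, 3 and 12 H3K27ac peaks at the respective stages, which covered 0, 1014 and 6211 bases of its window. All 12 lA peaks were intronic, from 6.60 to 105 kb from the start site. The 3 eA sites all had a peak in lA, and 9 lA peaks were unique, with −log10 q from 3.47 to 15.7. H3K4me1 was called gained as well, with 3, 15 and 22 peaks. H3K4me1 was found at 0, 4 and 7 of the 9 lA-unique sites when aNPC, eA and lA were read. Its promoter had H3K4me1 in aNPC and eA and no H3K27ac. Col8a2 held 1, 4 and 3 H3K27ac peaks, and its highest-ranked peak is at the promoter of a neighbour, Adprhl2.

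**Figure D4:**
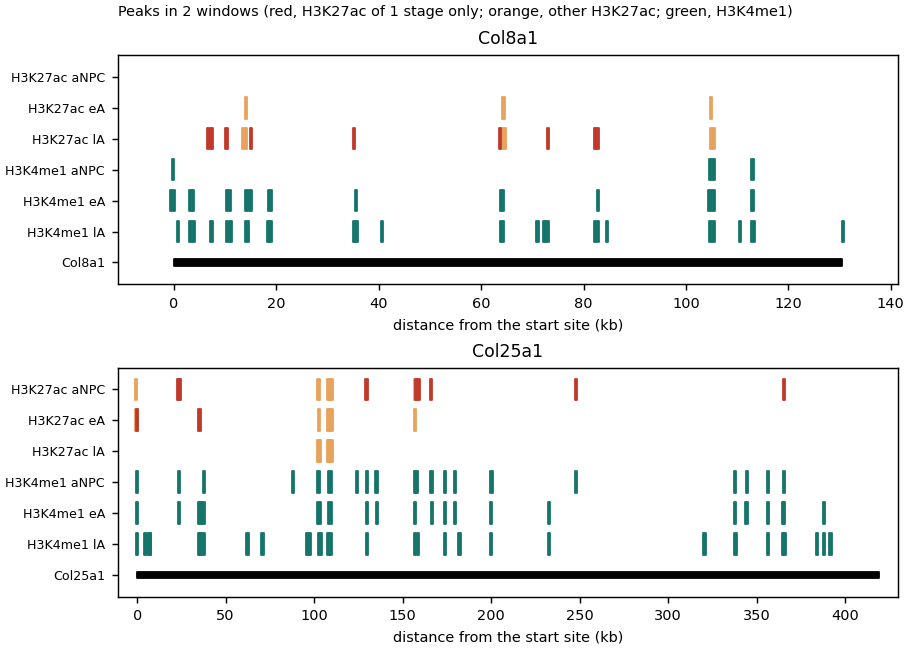
Peaks of both marks in the windows of Col8a1 and Col25a1 by distance from the start site in kb; red bars are H3K27ac peaks unique to a stage, orange bars other H3K27ac peaks, green bars H3K4me1 peaks and the black bar the gene, and narrow peaks are widened to be visible. Col8a1 goes from 0 H3K27ac peaks in aNPC to 12 in lA, and Col25a1 from 15 to 6.

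The 4 genes of beaded filament and anchoring fibril collagens held 6, 10 and 12 H3K27ac peaks (2.57, 4.28 and 5.14 per 100 kb). Col6a1 held 3, 5 and 6 peaks (8.03, 13.4 and 16.1 per 100 kb) and Col6a2 held 0, 1 and 3. Col6a3, which encodes the longest of these chains, held 2, 2 and 0 and was called lost. By peak number, the type VI genes, whose chains assemble together, were thus called in opposite directions from aNPC to lA. The call of Col6a1 was lost under 3 alternatives, with the gene body alone among them, where the difference was 0. That of Col6a3 rests on 2 peaks covering 639 bases, was lost with 50 kb on either side and after merging of peaks, and was not made by covered bases. Col7a1, the anchoring fibril collagen of skin, held 1, 2 and 3 peaks, and none at its promoter. All but 1 of these, an intronic peak of lA, lay nearest to the start site of a neighbour, Pfkfb4. That intronic peak lay nearest to the start site of another neighbour, Ucn2, 7695 bp away.

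Fibril-associated collagens, 6 genes, held 32, 41 and 49 H3K27ac peaks (5.16, 6.61 and 7.91 per 100 kb). Most of the increase was at Col14a1, a collagen of fibril surfaces, with 7, 8 and 18 peaks. Of its 18 lA peaks, 12 were unique to lA, and 2, 8 and 6 of these overlapped H3K4me1 of the respective stages. With a −log10 q of at least 5 the difference of Col14a1 was 5 peaks, and the call was lost. Col16a1 held 9, 14 and 9 peaks and Col12a1 held 5, 8 and 8. Both were highest or joint highest in eA, and at each stage 4 of the Col12a1 peaks were unique.

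The type IX collagen genes, whose chains form a single molecule on cartilage fibrils, showed no joint pattern. Col9a1 held 6, 7 and 10 H3K27ac peaks, Col9a2 held 2, 1 and 1, and Col9a3 held 3 at every stage. None of the 3 had promoter H3K27ac. The leading peak in the Col9a3 window, with −log10 q of 177 in aNPC, is at the promoter of Ogfr.

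Multiplexin and transmembrane collagens, 5 genes, held 32, 33 and 40 H3K27ac peaks (2.73, 2.81 and 3.41 per 100 kb). The sum joined opposite changes of its members. Col23a1 held 1, 8 and 13 peaks. The 1 aNPC peak lies at the promoter of Agxt2l2 at the end of the window, so no aNPC peak lay in the Col23a1 gene itself. In lA, 6 Col23a1 peaks were unique, of which 0 had H3K4me1 in aNPC, 4 in eA and 3 in lA. Col15a1, a multiplexin of basement membrane zones, held 2, 5 and 9 peaks, and its strongest eA-unique peak (chr4:47248063-47248758) had a −log10 q of 15.0. Col18a1, the other multiplexin and the source of endostatin, held 11, 10 and 12.

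Col25a1 held 15, 8 and 6 H3K27ac peaks, and 6561, 4022 and 2509 bases of its window were covered. Of the 15 aNPC peaks, 9 were unique to aNPC and none of the 6 lA peaks was unique to lA. The 6 lA peaks lay together in an intron (chr3:129985742-129993947), where peaks were found at every stage. H3K4me1 went the other way, with 20, 21 and 32 peaks, and 14 of the 32 in lA were unique to lA. With 50 kb on either side the H3K27ac difference was -6 peaks and no longer called. Col13a1, a transmembrane collagen of muscle and nerve endings, held 3, 2 and 0 peaks.

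The 5 laminin alpha genes held 41, 45 and 50 H3K27ac peaks (3.14, 3.45 and 3.83 per 100 kb). Lama1, the alpha chain of embryonic laminin, held 2, 1 and 0 peaks and 3, 3 and 5 of H3K4me1. Lama2 held 14, 5 and 11, being called lost from aNPC to eA and gained from eA to lA. Its called peaks largely differed between aNPC and lA. Of the 14 aNPC peaks 11 were unique, as were 7 of the 11 lA peaks, and no site had a peak at all 3 stages. The strongest lA-unique peak of all windows was at Lama2 (chr10:26837861-26838364, −log10 q of 20.6).

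Lama3, the alpha chain of epithelial laminins, had 11, 25 and 25 H3K27ac peaks, or 4.09, 9.29 and 9.29 per 100 kb. The bases covered were 3261, 9107 and 13100. In all, 36 sites were seen in its window, of which 4 had H3K27ac at every stage, 8 in eA and lA and 13 in lA only. An intronic peak 51.6 kb from the nearest start site had a −log10 q of 55.5 in eA and 43.4 in lA. H3K4me1 held 25, 26 and 40 peaks, 16 of them unique to lA. Lama4, the alpha chain of vessel and mesenchymal laminins, held 4, 6 and 6 H3K27ac peaks, and Lama5 held 10, 8 and 8. An aNPC-unique peak at Lama5 (chr2:179953611-179954242) reached a −log10 q of 69.5.

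The laminin beta and gamma genes, 4 in number, were densest in H3K27ac among the 7 families, with 32, 34 and 30 peaks (10.3, 10.9 and 9.65 per 100 kb). None was called from aNPC to lA by peak number, and Lamb3 was called lost by covered bases, with 5905 in aNPC and 2834 in lA. Lamb1 held 6, 8 and 7 peaks, Lamb2 held 4, 6 and 4, and Lamc1 held 11, 15 and 12. Lamc1 had 7 peaks unique to eA, and its promoter peak ranked 621 of 92700 in lA. Lamb3, the beta chain that joins Lama3 in epithelial laminin, held 11, 5 and 7 and was called lost from aNPC to eA. The strongest aNPC-unique peak of all windows was in Lamb3 (chr1:195164057-195164623, −log10 q of 79.8). It lay beside a peak of −log10 q 188 in the same list, and the start site nearest to both was that of Camk1g. By peak number, the partner genes Lama3 and Lamb3 were thus called in opposite directions from aNPC to eA. The alternatives were run for calls from aNPC to lA only, so neither of these calls was put through them.

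Peaks unique to a stage made up 102 of 233 H3K27ac peaks of the windows in aNPC (43.8%, 37.6 to 50.2), 57 of 236 in eA (24.2%, 19.1 to 30.0) and 104 of 274 in lA (32.4 to 43.8%). Over the whole lists the shares were 36.0%, 17.7% and 27.7%, each below the members' interval. Peaks of the windows were narrower and ranked lower, with a median width in aNPC of 331 bp against 435 bp and a median −log10 q of 7.11 against 9.80. The part of peak strength in these shares was not tested. After peaks under 1 kb apart were merged, 56, 33 and 59 unique peaks were left, which are 37.8% (30.4 to 45.9), 21.6% (15.8 to 28.7) and 33.1% (26.7 to 40.4), beside 31.3%, 15.7% and 23.9% of the merged lists. With 50 kb on either side, the share in aNPC was 36.0% (31.2 to 41.0), as over the list. A unique peak was found in 24, 25 and 28 members (63.2%, 65.8% and 73.7%), beside 30.5%, 31.8% and 29.5% of coding genes. Of those with windows as long, 40.4%, 42.5% and 39.9% had one. That set spans the members' range of lengths and is not matched to their median. The part of window length in these shares was not tested.

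The unique peaks were spread unevenly by number, and the longer windows are among those with most. In aNPC, Col27a1, Lama2, Col5a1, Col25a1 and Col4a1 held 48 of the 102 unique peaks (47.1%) in 30.2% of the summed window length. In lA, Lama3, Col14a1, Col8a1, Lama2 and Col5a1 held 47 of 104 (45.2%) in 28.9% of the length. Lama2 and Col5a1 were in both sets. In eA, Lamc1, Lama3, Col12a1, Col18a1 and Col8a2 held 24 of 57 (42.1%) in 14.2% of it. Ties were broken by the order of the gene list. Col8a2 tied with Col11a1, Col14a1 and Col16a1 at 3 unique peaks in eA, and Col5a1 with Col23a1 at 6 in lA. The sets and their shares of length in eA and lA depend on this order.

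When peaks of the 3 lists that overlapped were joined into sites, the windows held 434 H3K27ac sites. Of these, 79 (18.2%, 14.9 to 22.1) had a peak at every stage, beside 26.0% of 132992 sites of the genome. Sites of lA alone were 24.0% (20.2 to 28.2, beside 19.3%), and those of aNPC alone 23.5% (19.8 to 27.7, beside 21.5%). Sites of eA and lA were 12.9% (beside 13.9%), and sites of aNPC and lA without eA were 3.69% (beside 3.30%).

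**Figure D5:**
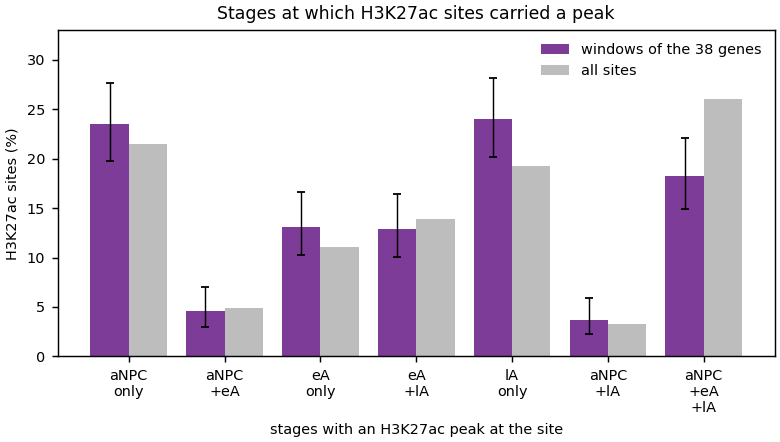
Share of H3K27ac sites (vertical axis, %) by the stages at which they had a peak (horizontal axis), for the 434 sites in the windows of the 38 genes (purple, with 95% Wilson intervals over sites) and for all 132992 sites (grey). The share with a peak at every stage is 18.2% in the windows and 26.0% over all sites.

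H3K4me1 at the unique H3K27ac peaks was read at each stage, to see which sites carried it before H3K27ac was called there and after it was not. Of the 104 lA-unique H3K27ac peaks, 28.8% (21.0 to 38.2) overlapped an H3K4me1 peak in aNPC, 65.4% (55.8 to 73.8) in eA and 70.2% (60.8 to 78.1) in lA. Over all lA-unique peaks of the list the shares were 30.3%, 60.5% and 73.2%. At 39 of the 104 (37.5%, beside 31.7%) H3K4me1 was found in eA but not in aNPC. Col8a1, Col23a1, Col11a1 and Col5a1, with 9, 6, 5 and 6 lA-unique peaks, had H3K4me1 in aNPC at 0 of them. At Lama2 and Lama3 it was there at 4 of 7 and 6 of 13.

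The 102 aNPC-unique peaks had H3K4me1 in aNPC at 83.3% (74.9 to 89.3), in eA at 71.6% (62.2 to 79.4) and in lA at 55.9% (46.2 to 65.1). Over the list these were 68.5%, 63.5% and 49.6%. At Col5a1, H3K4me1 was at 10 of 10 such sites in aNPC and 8 in lA. For the 57 eA-unique peaks the shares were 68.4%, 78.9% and 68.4%, beside 60.2%, 73.4% and 68.9% over the list, each inside the members' interval. Conversely, 41.9%, 48.0% and 52.8% of the members' H3K4me1 peaks of the respective stages had H3K27ac at no stage, beside 44.5%, 47.3% and 54.0% of the lists.

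Other genes of the same pathways were read by the same rule. Of coding genes with an H3K27ac peak at aNPC or lA, 17.8% gained H3K27ac between these stages and 9.16% lost it. The counts below are over all genes of each list, with or without a peak. Of 13 other collagen and laminin genes, 5 gained H3K27ac from aNPC to lA and 1 lost it, with 41, 68 and 74 peaks in all. Col4a6, of a type IV network with a restricted tissue range, held 3, 19 and 15, and Col19a1 held 5, 3 and 1. Among 19 genes that modify and process collagens, 5 gained and 0 lost, with 88, 122 and 140 peaks. Adamts2, which removes a propeptide of fibrillar procollagen, held 4, 15 and 17, and Loxl2, which crosslinks collagen, held 1, 7 and 13. The 10 partners of laminins and type IV collagen in the basement membrane had 1 gain and 1 loss. Nid2, a nidogen that bridges the laminin and collagen networks, held 4, 11 and 14, and Hspg2, the gene of perlecan, held 10, 5 and 5. Of 12 receptors of collagens and laminins, 3 gained and 0 lost. Promoter H3K27ac was at 12, 14 and 11 of the 19 processing genes and 7, 8 and 7 of the 10 partners, beside 50.6%, 53.2% and 48.2% of all coding genes.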

How the data were processed

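H3K27ac and H3K4me1 ChIP-seq of aNPC, eA and lA was used, as 6 deposited peak lists. The authors aligned reads uniquely to mm9 with Bowtie, merged the replicates of a stage with SAMTOOLS and called peaks with MACS2 at default settings without input. The deposited lists give positions, summit offsets and the −log10 q of each peak, which was used only within a list. RNA-seq and knockdown samples were not analysed here, and 8 libraries with conflicting labels were left unassigned.

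Gene bodies and start sites of coding transcripts were those of GENCODE M1 for mm9, and sequences from the NCBIM37 assembly, which is the same build. Peaks off chromosomes 1 to 19, X and Y, which were 4 or 5 per list, were left out. Peaks were counted in each gene body with 10 kb on either side, and lists were compared by overlap of at least 1 bp. Counts were tested on simulated peaks with known overlaps. The members, families and lists were chosen with earlier results of these data known. Genes named with values were those called gained or lost between any stages, those whose promoter H3K27ac differed between stages, the 3 with most unique peaks at each stage, and the remaining members by family. The alternatives were a −log10 q of at least 5, lists of equal length, the gene body alone, 50 kb on either side, summits in place of peaks, merging of peaks under 1 kb apart, a promoter of 1 kb to each side of any start site, its width and its start sites also varied alone, covered bases, and a background of genes with windows as long. Python 3.11.15, NumPy 2.4.6, pandas 2.3.3, SciPy 1.17.1, pysam 0.24.0, samtools 1.23.1 and matplotlib 3.10.9 were used.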

Additional observations from a re-analysis of the deposited data

How the results depend on the processing

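Of 85 values recomputed for the main results, 69 stayed within 1.5 times the count, or within the interval of the share or ratio. With lists of equal length, the ratio of lA to aNPC was 0.987 for H3K27ac and 0.970 for H3K4me1, 2 members gained H3K4me1 (5.26%, beside 6.03% of coding genes), and 38.4% of lA-unique peaks had H3K4me1 in aNPC. With a −log10 q of at least 5, unique peaks numbered 34 in eA (19.9%, 14.6 to 26.5), and the 16.1% of the list lay inside this interval. In lA they numbered 64 (32.0%, 25.9 to 38.8), with the share of the list below this range. With the gene body alone 7 members gained H3K27ac (19.4%, beside 14.1% of coding genes), and with 50 kb on either side 3 lost it (8.11%, beside 7.53%) and 101 peaks were unique to eA (24.9%, beside 17.7% of the list). Merging peaks under 1 kb apart left 56, 33 and 59 unique peaks. By summits, 7 members had promoter H3K27ac in aNPC and 10 in eA (18.4% and 26.3%, beside 34.3% and 36.3% of coding genes), and with 1 kb to each side of the start sites of all transcripts 18 had it in aNPC and 19 in lA. With the width or the start sites changed alone, chosen after seeing the data, these were 16 and 17, or 12 and 15. Among the 17 members called from aNPC to lA, 26 of 102 recomputed values lost the call, 5 of them with no difference left, and none reversed. Beside genes with windows as long, the background of gains was 19.4% in place of 17.8%, and of losses 9.52% in place of 9.16%. The cause of these shifts was not tested. No paired analysis was possible because the replicates of each stage were merged before peaks were called. Peak counts depend on the depth of the merged libraries, which is unknown, and replicate error could not be given for any value.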

Other observations

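Beyond the members, the wider list of 13 other collagen and laminin genes held H3K4me1 peaks in growing number. There were 113, 150 and 207 at aNPC, eA and lA. From aNPC to lA, 4 of the 13 genes gained H3K4me1 and none lost it. The shares were 14.5% and 3.22% of coding genes with an H3K4me1 peak at aNPC or lA. Col28a1, a collagen known from peripheral nerve, held 10, 10 and 26 H3K4me1 peaks and 5, 4 and 13 of H3K27ac. Col10a1, the collagen of hypertrophic cartilage, had no peak of either mark at any stage, and Col20a1 had 1 H3K4me1 peak per stage and none of H3K27ac. Leprel1, a prolyl 3-hydroxylase of collagens, held 20, 24 and 48 H3K4me1 peaks and 15, 18 and 18 of H3K27ac. Lox, a collagen crosslinking enzyme, had no H3K27ac peak and 1, 1 and 2 of H3K4me1.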
